A study of Mus musculus with 18 samples.

Results

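The clustered replication-dependent histone genes were taken as every gene whose mouse symbol begins with Hist1h, Hist2h, Hist3h or Hist4h, without entries marked as pseudogenes by the suffix ps. The rule found 69 of the 55450 genes in the table. They comprised 6 H1, 20 H2A, 18 H2B, 12 H3 and 13 H4 genes. RNA was sequenced from ED1SQ4, a mouse lung cancer line that originated in mice carrying a cyclin E transgene, after 72 hours with vehicle or with 0.5 µM CYC065, an inhibitor of the cyclin-dependent kinases CDK2 and CDK9. Each treatment was profiled as unsorted cells, as sorted 2N cells and as sorted 4N cells, which the paper calls diploid and polyploid. This makes 6 conditions of the same line with the same transgene. The question was how the RNA of CDK2-inhibited cells differs by ploidy. Sorting followed 1 hour of staining with a live DNA dye. The gates were set on DNA content, which alone does not separate polyploid cells from cells in G2 or M phase. Whether unsorted cells were stained is not given in the sources used here.

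Histones package DNA into nucleosomes. The core histones H2A, H2B, H3 and H4 form the particle around which DNA winds, and H1 binds the linker DNA between particles. The clustered genes supply histones for newly copied DNA. Their mRNAs accumulate in S phase and fall when replication stops, and most end in a stem-loop bound by SLBP in place of a poly(A) tail. Some clustered genes are also known to make polyadenylated mRNAs. Ribosomal RNA was depleted from total RNA before these libraries were made, so the measurement did not depend on a poly(A) tail.

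Each condition held 3 columns, which the sample titles number as replicates and the library names as parts. Over genes with whole counts, the chi-square statistic divided by its degrees of freedom was 0.991 to 1.02 within conditions, so for these genes the columns differed by no more than sampling noise. For the histone genes it was 1.95 to 13.7. Most of them had fractional counts, since RSEM divides reads that fit several genes, and the columns differed in that division. The columns were summed and counted as 1 library per condition, although the titles call them replicates. No difference between conditions therefore has a replicate check, and no P value is given. The summed expected counts per library lay between 54750203 and 62795507. A level is given in CPM, the count scaled to the library's total after TMM normalization, and a difference on the log2 scale with its 95% binomial interval. The interval covers counting error only, and for genes that share reads it is too narrow. Genes with at least 30 counts in one of the libraries compared were tested, and a member was called lower or higher when its difference passed 1 on the log2 scale, that is a 2-fold change. Epithelial markers (*Epcam*, *Krt8*, *Krt18*, *Krt19*, *Cdh1*) summed to 0.436 to 1.28 CPM in the 6 libraries, lung lineage markers (*Nkx2-1*, *Sftpc*, *Sftpb*, *Scgb1a1*) to 0 to 0.074 CPM and leukocyte markers to 0 to 0.034 CPM. *Vim*, *Col1a1*, *Col1a2* and *Pdgfra* summed to 10593 to 16265 CPM. The epithelial and lung lineage markers of the labelled tissue were thus near absent.

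The genes lie in 4 clusters (mm10, GENCODE M21). Hist1 held 56 genes on chromosome 13, of which 24 lie in chr13:21715763-22043676 and 31 in chr13:23531050-23934851. *Hist1h2al*, annotated as a processed pseudogene, lies apart at chr13:51202727-51203065. Hist2 held 10 genes in chr3:96219865-96270132, Hist3 held 2 in chr11:58948920-58956830, and Hist4 held only *Hist4h4* on chromosome 6. In 34 of the 69 genes at least 50% of the 50-base stretches of the transcripts also occur in another gene.

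The stem-loop is shown for 8 genes, with 5 bases on either side, read from the annotated transcripts (mm10, GENCODE M21). All but *Hist1h4b*, shown for its stem sequence, are named in the results below. Capitals mark the stem-loop, in which the first and last 6 bases pair.

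Hist2h3c2: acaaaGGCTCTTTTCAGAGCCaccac
Hist1h3g: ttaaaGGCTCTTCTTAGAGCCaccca
Hist1h1c: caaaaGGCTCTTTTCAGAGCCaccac
Hist1h1d: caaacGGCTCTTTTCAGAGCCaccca
Hist1h2ac: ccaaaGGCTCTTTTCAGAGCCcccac
Hist1h4d: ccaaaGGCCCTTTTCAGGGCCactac
Hist1h4a: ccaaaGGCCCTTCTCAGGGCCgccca
Hist1h4b: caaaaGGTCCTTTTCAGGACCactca

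A pattern fixed the outer bases of the stem, the T and A that close it at the loop, and T letters within the loop. It found a stem-loop in the transcripts of 46 of the 69 genes. The 5′ side of the stem separated H4 from the other classes. All 34 stem-loops of H1, H2A, H2B and H3 genes began with GGCTC, whereas those of the 12 H4 genes began with GGCCC in 10 and with GGTCC in 2. In 23 genes the annotated transcript ended within 100 bases of the stem-loop, and in 23 it ran on for more than 100 bases, by 840 bases in *Hist1h1c* and 2010 in *Hist1h2ac*. In the other 23 no match was found, which says only that the pattern is not in the annotated transcript.

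The histone genes were abundant in unsorted vehicle-treated cells and low in every other library. Their summed level was 7930 CPM in vehicle unsorted, 2263 in vehicle 2N and 1261 in vehicle 4N cells. With CYC065 it was 1498 CPM in unsorted, 788 in 2N and 656 in 4N cells. The vehicle unsorted library stood above all others, and the order unsorted, 2N, 4N was the same in both treatments. Of the 64 members with at least 30 counts in a library, 62 had their highest level in vehicle unsorted and 50 their lowest in CYC065 4N cells. CYC065-treated 2N and 4N cells both lay below vehicle-treated 2N and 4N cells for 47 of these members. In bulk RNA, fewer cells that express histone genes and less histone mRNA per cell cannot be told apart. CPM is relative to the other RNA of a library, so a difference in total RNA per cell was not measured.

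**Figure D1:**
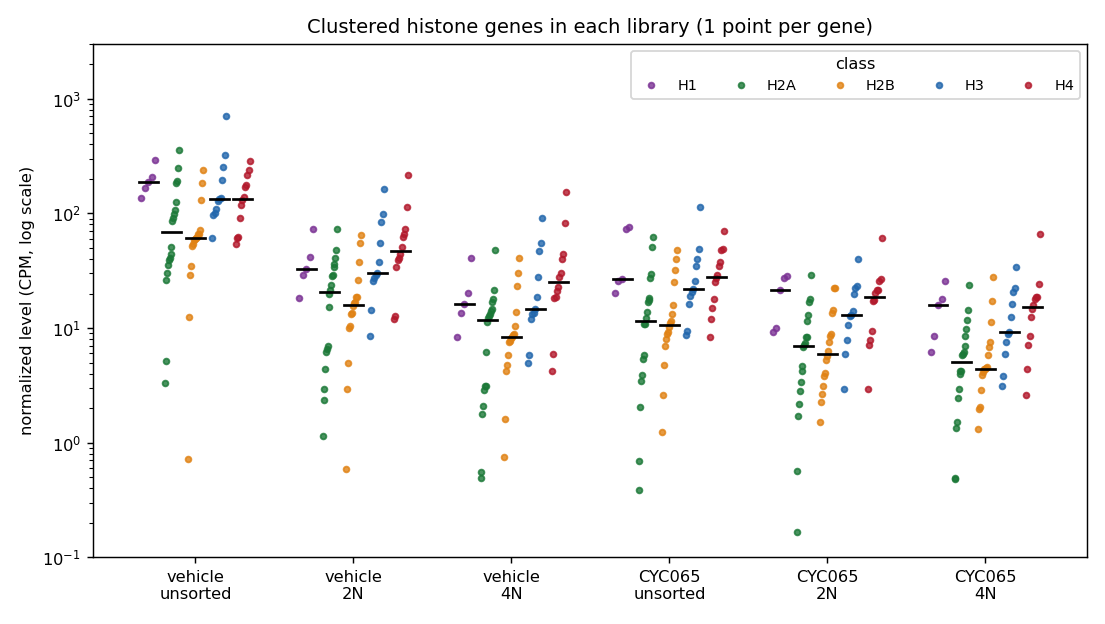
Normalized level in CPM (log axis) of the 62 clustered histone genes with at least 100 counts in a library, in each of the 6 libraries. Each point is 1 gene, colours mark the histone classes, and black lines are class medians. The median of each of the 5 classes is highest in vehicle unsorted, while single genes such as *Hist2h2be* are not.

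The 5 other members stayed under 30 counts in every library. They were *Hist1h1t*, *Hist1h2ba* and *Hist1h2aa*, known as testis histone genes, with *Hist1h4m* and the pseudogene *Hist1h2aj*. The highest of their counts was 20.6, in *Hist1h4m*.

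Levels of different genes are compared per kilobase of the longest annotated transcript, as means over the 6 libraries. *Hist2h2bb* (H2B) had 194 CPM per kilobase, *Hist2h3c2* (H3) 188, *Hist2h3b* (H3) 186 and *Hist2h2aa1* (H2A) 170. *Hist1h4n* (H4) had 156 CPM per kilobase and *Hist1h1a* (H1) 58.5. These means weigh vehicle unsorted most, and the order within a class changed between libraries. In vehicle unsorted *Hist1h4n* had 505 CPM per kilobase, above the other H4 genes. In vehicle 2N cells *Hist1h4a* had 210 and *Hist1h4d* 192 CPM per kilobase, against 146 for *Hist1h4n*. In vehicle 4N cells they had 152, 135 and 70.6. By the means, the highest genes of the H2A, H2B and H3 classes lay in the small Hist2 cluster, which held 28.1% of all clustered histone counts in vehicle unsorted and 21.9% in vehicle 2N cells. *Hist2h2bb*, *Hist2h3c2*, *Hist2h3b* and *Hist2h2aa1* share 53.6%, 63.5%, 79.7% and 89.4% of their 50-base stretches with other genes. The ranking of these single genes is therefore uncertain.

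CYC065 against vehicle was compared first in unsorted cells. Histone mRNA was lower with CYC065 in every class. The summed level fell by 2.41 on the log2 scale (interval -2.42 to -2.39), which is 5.30-fold lower. Of 64 members tested, 61 (95.3%) were called lower and 1 higher, against 13.9% lower and 11.7% higher among all 14076 genes tested. The median difference was -2.49 for the members and -0.07 for all genes. By class, the sums differed by -2.16 for H1, -2.59 for H2A, -2.25 for H2B, -2.64 for H3 and -2.22 for H4.

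*Hist2h3c2*, an H3 gene and the member with the most counts, had 705 CPM in vehicle unsorted and 113 in CYC065 unsorted cells, a difference of -2.63. *Hist2h3b*, a neighbour that encodes H3, had 324 and 48.6 CPM (-2.74). *Hist1h3b*, also H3, had 256 and 40.2 CPM (-2.67). All the leading H3 genes were more than 6-fold lower. Of the H2A genes, *Hist2h2aa1* went from 360 to 62.0 CPM (-2.54) and *Hist1h2ai* from 183 to 29.5 CPM (-2.63). *Hist2h2aa2* shares all of its 50-base stretches with other genes, so it was read with *Hist2h2aa1*, and their sum differed by -2.43. Genes outside the members, with *Gm20634* the closest, hold 89.4% of the stretches of *Hist2h2aa1* and all of those of *Hist2h2aa2*. The sum leaves these genes out, so it is uncertain too. The largest difference among members with at least 100 counts was that of *Hist1h2ag* (H2A), with 30.2 CPM in vehicle and 2.07 in CYC065 unsorted cells (-3.86).

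The H2B genes *Hist2h2bb*, *Hist1h2bg* and *Hist1h2bk* had 238, 186 and 131 CPM in vehicle unsorted cells and 48.3, 40.2 and 25.1 CPM in CYC065 unsorted cells. Each was more than 4-fold lower. *Hist1h2bc*, another H2B gene, had the smallest difference in this direction, with 61.2 and 32.4 CPM (-0.92, interval -1.003 to -0.84), and was not called. Its divergent neighbour *Hist1h2ac* (H2A) had 41.0 and 10.9 CPM (-1.90).

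The H1 genes encode linker histone subtypes, and the 5 measured ones differed by unequal amounts. *Hist1h1b* differed most, with 167 CPM in vehicle and 20.1 in CYC065 unsorted cells (-3.06). *Hist1h1d* had 208 and 26.6 CPM (-2.97), *Hist1h1a* 135 and 25.9 CPM (-2.38) and *Hist1h1e* 293 and 73.0 CPM (-2.003). *Hist1h1c* differed least, with 188 and 76.4 CPM (-1.30, interval -1.35 to -1.25). The intervals of *Hist1h1b* and *Hist1h1c* did not overlap. After CYC065, *Hist1h1c* and *Hist1h1e* were the H1 genes of highest level per kilobase in unsorted cells.

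**Figure D2:**
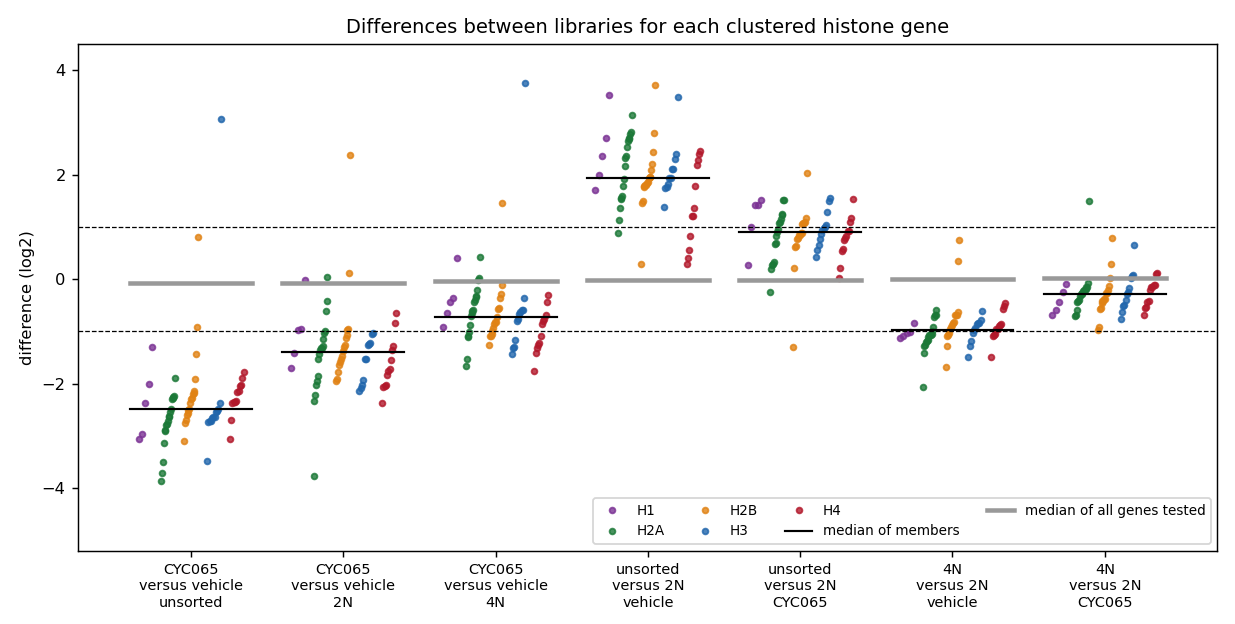
Difference on the log2 scale in 7 comparisons between libraries. Each point is a clustered histone gene with at least 30 counts in one library compared, colours mark the classes, black lines are the medians of the members, grey lines those of all genes tested, and dashed lines mark 1 in either direction. CYC065 differences are centred at -2.49 in unsorted, -1.40 in 2N and -0.73 in 4N cells.

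In sorted cells the same contrast was smaller. In 2N cells the summed level differed by -1.52 (interval -1.54 to -1.51), 2.87-fold lower with CYC065. Of 62 members tested, 50 were called lower and 1 higher, against 13.3% lower and 14.9% higher among all genes tested. In 4N cells the summed level differed by -0.94 (interval -0.96 to -0.93), and 19 of 63 members were called lower and 2 higher, against 11.4% and 14.1%. With scaling by library size alone, 12 were lower and 2 higher in 4N cells. The members' median was -1.40 in 2N and -0.73 in 4N cells, and that of all genes -0.07 and -0.03. Removing the trend of differences over transcript length left 10 members lower and 2 higher in 4N cells. The 10 of 63 lower are not far from the 11.4% of all genes tested, a share taken without that removal. No vehicle or CYC065 library is shared between these 3 contrasts.

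H4 and H3 genes led the difference in 2N and 4N cells, and H1 genes had the smallest. The H4 sum differed by -1.69 in 2N and -1.16 in 4N cells. The H3 sum differed by -1.72 and -1.07, that of H2A by -1.46 and -0.83 and that of H2B by -1.30 and -0.74. The H1 sum differed by -1.003 in 2N and -0.42 in 4N cells. *Hist1h4a* had 113 CPM in vehicle 2N and 27.0 in CYC065 2N cells, and 82.2 and 24.1 CPM in 4N cells. Its difference of -1.77 in 4N cells was the largest in this direction of any member with at least 100 counts there. *Hist1h4d*, the H4 gene with the most counts, differed by -1.84 in 2N and -1.22 in 4N cells.

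Some genes went against the rest in sorted cells. *Hist1h1c* had 28.9 CPM in vehicle 2N and 28.6 in CYC065 2N cells (-0.01, interval -0.11 to 0.09), and 13.5 and 17.8 CPM in 4N cells (0.40, interval 0.27 to 0.53). *Hist1h2ac* had 6.57 and 6.77 CPM in 2N cells (0.04) and 3.13 and 4.203 CPM in 4N cells (0.42, interval 0.15 to 0.69). *Hist1h2bc* had 13.2 and 14.4 CPM in 2N cells (0.12) and 8.24 and 7.57 CPM in 4N cells (-0.12). These genes were lower with CYC065 in unsorted cells but lay near or above 0 in sorted cells, where none passed 1. *Hist1h2an* (H2A), with 85.8% of its 50-base stretches in other genes, also lay at 0.02 in 4N cells.

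*Hist2h2be*, an H2B gene of low level with no 50-base stretch in another gene, was higher with CYC065 throughout. It had 0.72, 0.59 and 0.75 CPM in vehicle unsorted, 2N and 4N cells. With CYC065 it had 1.25, 3.10 and 2.07 CPM. Its differences were 0.80 in unsorted (interval 0.23 to 1.40), 2.38 in 2N (1.86 to 2.98) and 1.45 in 4N cells (0.96 to 1.99). It lies at chr3:96221119-96223738, its annotated transcript of 2620 bases held no match to the stem-loop, and its start is 238 bases from that of *Hist2h2ac*, an H2A gene on the other strand. *Hist2h2ac* had 107 CPM in vehicle and 12.1 in CYC065 unsorted cells (-3.14), and it differed by -1.85 in 2N and -0.64 in 4N cells. The partners thus lay on opposite sides of 0 in all 3 populations.

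*Hist2h3c1* (H3) was also listed as higher with CYC065, at 1.009 CPM in unsorted, 0.50 in 2N and 0.79 in 4N cells, against 0.11, 0 and 0.05 CPM with vehicle. All of its 50-base stretches occur in *Gm20634* and 34.7% in *Hist2h3c2*, so its count is uncertain. Genes outside the members, with *Gm20634* the closest, also hold 63.5% of the stretches of *Hist2h3c2*. The sum of *Hist2h3c1* and *Hist2h3c2* leaves these genes out, so it is uncertain too. It was lower with CYC065 in all 3 populations (-2.62, -2.01 and -1.40). The other 8 Hist2 genes lay below 0 in each. *Hist2h4* (H4) differed by -3.06, -1.36 and -0.85. *Hist2h2ab* (H2A) reached only 3.35 CPM in vehicle unsorted and 0.69 in CYC065 unsorted cells (-2.26), and it differed by -1.003 in 2N and -0.02 in 4N cells.

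The lone genes of Hist3 and Hist4 followed the others in unsorted cells. *Hist3h2a* (H2A) had 51.2 CPM in vehicle and 10.8 in CYC065 unsorted cells (-2.24), 19.9 and 12.9 CPM in 2N cells (-0.62) and 12.4 and 9.85 CPM in 4N cells (-0.33). *Hist3h2ba* (H2B) did not exceed 0.60 CPM. *Hist4h4* (H4) had 178 and 48.2 CPM in unsorted cells (-1.89), 33.9 and 21.5 CPM in 2N cells (-0.65) and 18.2 and 14.7 CPM in 4N cells (-0.31). These genes were called lower in unsorted cells and not in sorted ones, except that *Hist3h2ba* was tested in unsorted cells alone.

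The members with long annotated transcripts included those with small differences in sorted cells. Across members, Spearman's rho between transcript length and the CYC065 difference was 0.26 in unsorted (n = 64), 0.48 in 2N (n = 62) and 0.37 in 4N cells (n = 63). These points share libraries and depth, and the correlation is a description. Members whose transcript ended within 100 bases of the stem-loop had a median difference of -1.504 in 2N cells (20 of 22 called lower). Those running more than 100 bases past it had -1.25 (13 of 20), and those without a match -1.53 (17 of 20). Among all genes tested in 2N cells, 13.3% were called lower. The groups overlapped widely, with ranges of -3.77 to -0.42, -2.07 to 0.04 and -2.37 to 2.38.

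The unsorted libraries were compared with the sorted ones of the same treatment. The comparisons with 2N and with 4N cells share the unsorted library. In vehicle-treated cells the summed histone level was 3.50-fold higher in unsorted than in 2N cells (log2 1.81) and 6.29-fold higher than in 4N cells (log2 2.65). Of 63 members tested against 2N, 57 were called higher and 0 lower, against 7.22% higher and 3.23% lower among all genes tested. Against 4N cells, 60 of 63 were higher and 0 lower, against 8.63% and 3.6%. With CYC065 the unsorted sum was 1.90-fold that of 2N cells, with 24 of 62 members called higher and 1 lower (all genes 3.21% and 3.54%), and 2.28-fold that of 4N cells, with 44 of 63 higher and 0 lower (4.69% and 4.16%). With scaling by library size alone, 12 members were called higher in CYC065 unsorted than in CYC065 2N cells, and with the length trend removed 39.

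Which cells the gates took and how sorted cells were handled cannot be told apart in these comparisons. Genes of DNA replication did not share the direction. The 16 of the list (*Pcna*, *Mcm2* to *Mcm7*, *Cdc6*, *Ccne1*, *Ccne2*, *Rrm1*, *Rrm2*, *Tyms*, *Tk1*, *Gins2*, *Fen1*) summed to 2136 CPM in vehicle unsorted against 3065 in 2N and 2867 in 4N cells. With CYC065 they summed to 639, 1045 and 1225 CPM. All 16 lay below 0 in unsorted against 2N and against 4N cells of either treatment, whereas with vehicle 63 of 63 histone genes lay above 0 against 2N and 62 of 63 against 4N cells, the exception being *Hist2h2be* (-0.07). Under the contrast of CYC065 with vehicle, 16, 15 and 12 of the 16 replication genes were called lower in unsorted, 2N and 4N cells. Of the histone genes tested, 61 of 64 (95.3%), 50 of 62 (80.6%) and 19 of 63 (30.2%) were called lower. The shares among all genes tested were 13.9%, 13.3% and 11.4%.

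**Figure D3:**
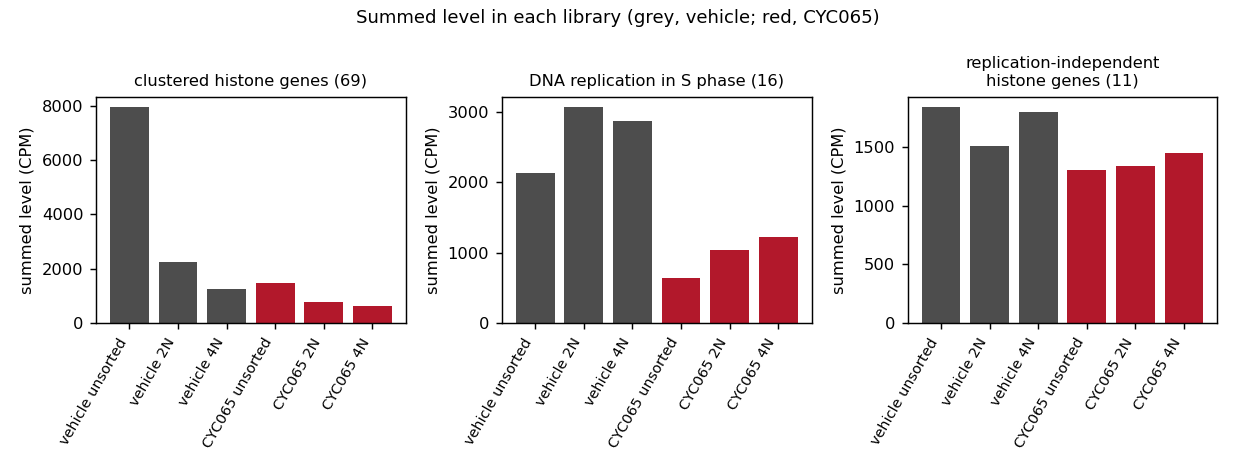
Summed level in CPM of the 69 clustered histone genes, 16 genes of DNA replication and 11 replication-independent histone genes in each library, as bars from 0 (grey, vehicle; red, CYC065). The clustered genes peak in vehicle unsorted at 7930 CPM, while the replication genes are higher in vehicle 2N (3065 CPM) than in vehicle unsorted (2136 CPM).

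The excess of the unsorted cells differed by class. It was largest for H1 and smallest for H4. In vehicle-treated cells, the sums of unsorted against 2N cells differed by 2.35 for H1 (interval 2.32 to 2.38), 2.14 for H2A, 1.86 for H2B, 1.97 for H3 and 1.19 for H4 (interval 1.17 to 1.202). *Hist1h1d* led the members with at least 100 counts, with 208 CPM in unsorted, 18.2 in 2N and 8.30 in 4N cells, differences of 3.52 and 4.65. *Hist1h3g* (H3) had 96.2, 8.56 and 4.95 CPM (3.49 and 4.28). *Hist1h1c* had 188, 28.9 and 13.5 CPM (2.701 and 3.80). *Hist1h1a* was the H1 gene with the smallest difference, at 1.71 and 2.74.

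**Figure D4:**
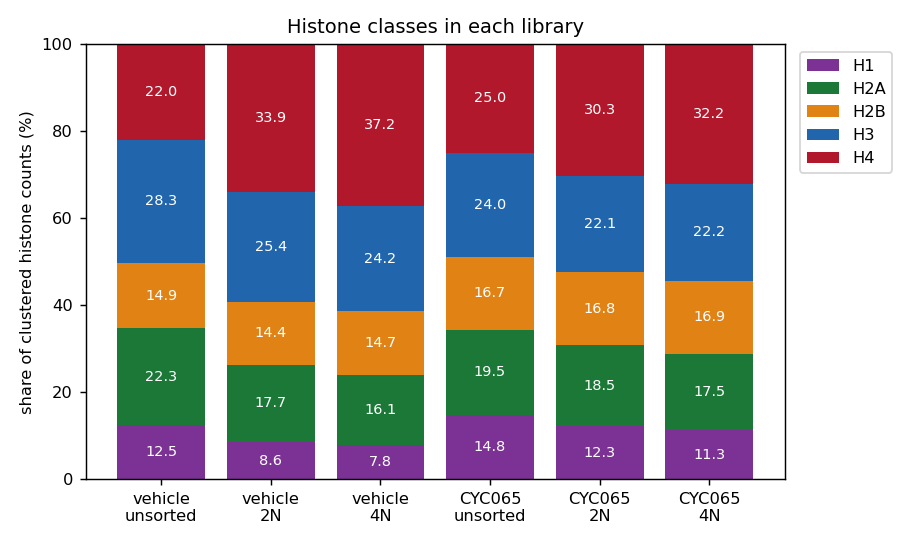
Share of the clustered histone counts taken by each class in each library, in percent, as stacked bars from 0 to 100. The H4 share is 22.0% in vehicle unsorted, 33.9% in vehicle 2N and 37.2% in vehicle 4N cells, and 24.98%, 30.3% and 32.2% with CYC065.

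The composition of histone mRNA changed accordingly. H4 genes took 22.0% of the clustered histone counts in vehicle unsorted (exact interval 21.9% to 22.1%), 33.9% in 2N and 37.2% in 4N cells. H1 genes took 12.5%, 8.59% and 7.84%. With CYC065 the H4 share was 24.98%, 30.3% and 32.2% and the H1 share 14.8%, 12.3% and 11.3%. The H2B share lay between 14.4% and 16.9% in all 6 libraries.

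*Hist1h4a*, *Hist1h4c* and *Hist1h4d* were grouped after their values were seen, so their contrast with the other H4 genes is a description. Together they took 6.85% of histone counts in vehicle unsorted, 17.6% in 2N and 22.2% in 4N cells. The other H4 genes took 15.2%, 16.3% and 15.03%, a contrast that the choice of genes favoured. *Hist1h4a* had 138 CPM in vehicle unsorted and 113 in 2N cells, a difference of 0.29, the smallest of any member with at least 100 counts in either library. *Hist1h4d* had 287 and 218 CPM (0.40) and *Hist1h4c* 119 and 66.7 CPM (0.83). *Hist1h4k* had a difference of 0.56, smaller than that of *Hist1h4c*, but 71.1% of its 50-base stretches occur in *Hist1h4a*. The other 8 measured H4 genes lay between 1.201 (*Hist1h4h*) and 2.44 (*Hist2h4*).

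Promoter sequences were matched for 62 members (RefSeq, GRCm38.p6, 250 bases before to 50 after the start). Parts of 5 of them follow, up to 150 bases that end before the first annotated start, chosen to set H4 genes with a small and a larger unsorted difference side by side with an H2B gene. Capitals mark 3 motifs in either orientation, namely the TATA motif (letters TATAAA), the pentamer known to bind NF-Y (letters CCAAT) and the octamer known to bind POU factors (letters ATTTGCAT).

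Hist1h4a (chr13:23761250-23761399, minus strand): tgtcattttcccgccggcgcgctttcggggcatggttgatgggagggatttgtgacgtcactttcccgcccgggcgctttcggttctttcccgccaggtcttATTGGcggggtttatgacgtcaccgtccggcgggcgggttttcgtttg
Hist1h4d (chr13:23581418-23581567, plus strand): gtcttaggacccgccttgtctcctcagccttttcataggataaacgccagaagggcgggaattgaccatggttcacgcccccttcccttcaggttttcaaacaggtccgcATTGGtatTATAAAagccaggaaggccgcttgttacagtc
Hist1h4h (chr13:23530894-23531043, plus strand): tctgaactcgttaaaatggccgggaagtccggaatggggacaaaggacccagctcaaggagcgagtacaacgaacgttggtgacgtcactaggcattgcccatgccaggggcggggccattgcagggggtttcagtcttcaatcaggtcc
Hist1h4n (chr13:21832198-21832347, minus strand): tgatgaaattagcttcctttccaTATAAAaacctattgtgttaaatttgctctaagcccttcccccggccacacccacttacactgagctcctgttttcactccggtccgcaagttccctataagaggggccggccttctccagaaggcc
Hist1h2bk (chr13:22035671-22035820, plus strand): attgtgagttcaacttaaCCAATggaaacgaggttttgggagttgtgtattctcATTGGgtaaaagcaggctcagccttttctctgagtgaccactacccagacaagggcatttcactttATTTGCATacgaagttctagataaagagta

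CCAAT was found on either strand in 85.5% of the members' 300-base windows and in 37.4% of all 32851 windows. TATAAA was found in 56.5% of the members' and 13.6% of all windows, and ATTTGCAT in 20.97% and 1.74%. ATTTGCAT was seen in 7 of 18 H2A and 6 of 16 H2B windows, and in none of the H1, H3 and H4 windows. CCAAT was in all H1, H2A, H2B and H3 windows, but in only 3 of 12 H4 windows. Those 3 belong to *Hist1h4a*, *Hist1h4c* and *Hist1h4d*, the H4 genes with small differences between unsorted and 2N cells other than *Hist1h4k*. This comparison was drawn after the values were seen, so it is a description. CCAAT was also in the windows of H1 and H3 genes with large differences, such as *Hist1h1d* and *Hist1h3g*.

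**Figure D5:**
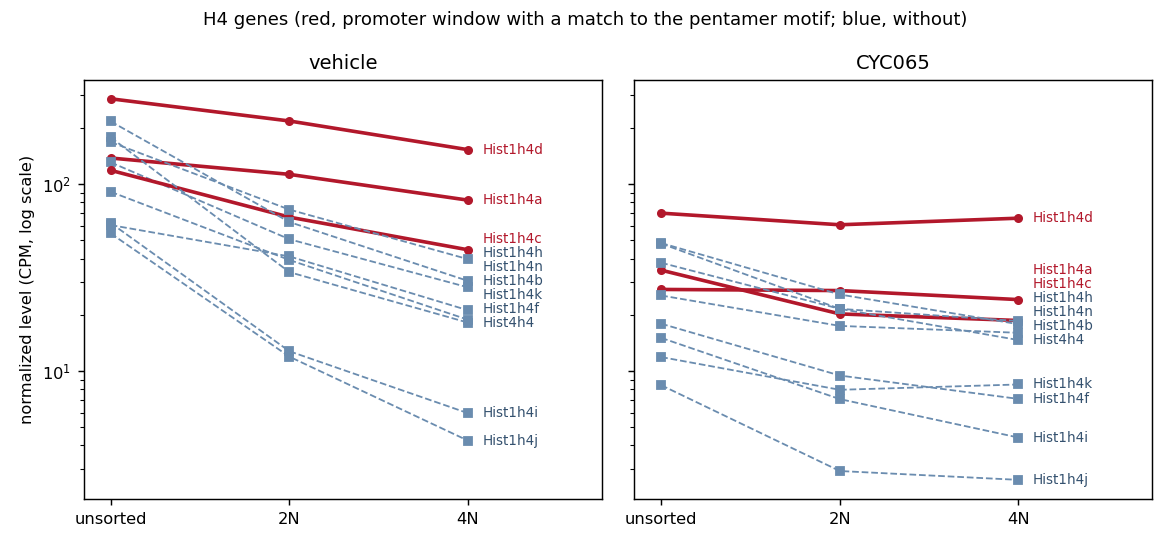
Normalized level in CPM (log axis) of 11 H4 genes with a promoter window, in unsorted, 2N and 4N cells with vehicle (left) and CYC065 (right). Red lines are *Hist1h4a*, *Hist1h4c* and *Hist1h4d*, whose windows hold the CCAAT motif, and dashed blue lines are the other genes. *Hist1h4d* and *Hist1h4a* keep the flattest lines, from 287 to 153 CPM and from 138 to 82.2 CPM with vehicle.

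In 4N against 2N cells, histone mRNA was lower in 4N cells with vehicle and differed little with CYC065. With vehicle the summed level differed by -0.84 (interval -0.86 to -0.83), and 29 of 62 members were called lower and 0 higher, against 1.67% lower and 1.0% higher among all genes tested. Their median was -0.97. Many lay near the threshold, and in 11 the counting interval was wholly beyond it. The H1 sum differed by -0.97, H2A by -0.98, H3 by -0.91, H2B by -0.82 and H4 by -0.71. *Hist1h1d* had 18.2 CPM in vehicle 2N and 8.30 in vehicle 4N cells (-1.13), *Hist2h2ac* 15.2 and 6.22 CPM (-1.29) and *Hist1h4j* (H4) 11.9 and 4.24 CPM (-1.49). *Hist2h2be* (0.35) and *Hist1h2br* (0.75) lay above 0.

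With CYC065 the summed level differed by -0.27 (interval -0.28 to -0.25) between 4N and 2N cells. No member was called lower and 1 higher, against 1.99% and 1.58% of all genes tested. The 1 called was *Hist1h2ao* (H2A), at 0.17 CPM in 2N and 0.48 in 4N cells, with 93.5% of its 50-base stretches in other genes, and its difference turned to -4.37 without the third columns. *Hist2h2bb* had 22.5 and 27.7 CPM (0.30) and *Hist1h4d* 60.7 and 65.8 CPM (0.12), whereas *Hist1h2ac* had 6.77 and 4.203 CPM (-0.69) and *Hist1h1c* 28.6 and 17.8 CPM (-0.68).

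The difference of the 4N/2N ratios, CYC065 minus vehicle, was 0.58 for the summed level. It was above 0 for 60 of 63 members, and 6 passed 1 above and 1 below, against 3.61% and 3.5% of all genes tested. Without the second columns 10 passed above and 2 below. With 1 library per condition this difference was not tested. By class the sums gave 0.53 to 0.66. Those above were *Hist1h2ao* (3.56), *Hist1h4j* (1.34), *Hist2h2ac* (1.205), *Hist1h2bh* (1.06), *Hist1h4k* (1.05) and *Hist1h2an* (1.05), and that below was *Hist2h3c1* (-2.15). *Hist2h2be* had -0.93 and *Hist1h2bc* -0.25.

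Neighbouring genes were compared where their starts face away from each other. The annotation held 14 such pairs within the clusters, 13 of an H2A with an H2B gene and 1 of *Hist1h2bh* with *Hist1h3f*. The absolute difference between the partners' changes had a median of 0.74 in CYC065 against vehicle in unsorted cells and 0.28 in 2N cells. The largest were those of *Hist2h2ac* with *Hist2h2be*, at 3.95 and 4.23. Among the members, *Hist1h2bq* and *Hist1h2br* (H2B) share 97.3% and 88.7% of their 50-base stretches with other genes. In vehicle unsorted, *Hist1h2br* had expected counts of 834, 10.1 and 1162 in the 3 columns, and *Hist1h2bq* 1181, 1843 and 769. Counts of 1 gene of such a group are therefore uncertain, and their sum is given. It differed by -2.38 in unsorted, -1.08 in 2N and -0.76 in 4N cells with CYC065.

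The members with under 20% of shared 50-base stretches were counted alone. Of 12 such members tested, 11 were called lower with CYC065 in unsorted cells, 5 lower and 1 higher in 2N cells, and 2 lower and 1 higher in 4N cells. Among all genes tested, 13.9% were lower in unsorted cells, and 13.3% were lower and 14.9% higher in 2N cells. The shares in 4N cells were near those of all genes tested (11.4% lower and 14.1% higher). The 1 higher was *Hist2h2be*. None of the 12 was an H3 gene and *Hist1h2ac* was the only H2A gene, so these counts do not speak for H3 or most H2A genes. H1 genes and genes with long annotated transcripts, such as *Hist1h1c* and *Hist1h2ac*, were among the 12. In vehicle-treated cells 9 of the 12 were higher in unsorted than in 2N cells, against 7.22% of all genes tested.

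The machinery that makes and uses histone mRNA was examined with lists of known factors. Among all genes tested, 13.9%, 13.3% and 11.4% were called lower with CYC065 in unsorted, 2N and 4N cells and 11.7%, 14.9% and 14.1% higher, and the counts of these lists are read against those shares. Of 6 regulators of histone transcription, *Casp8ap2*, a protein of histone locus bodies, was called lower with CYC065 in unsorted cells (-1.003) and none in sorted cells. *Npat*, the coactivator phosphorylated by CDK2, differed by -0.35, -0.31 and -0.19 in unsorted, 2N and 4N cells. Of 13 processing factors, 6, 3 and 2 were called lower in the 3 populations, and the count in 4N cells was near the share of all genes. *Slbp*, which binds the stem-loop, had 68.6, 101 and 91.0 CPM in vehicle unsorted, 2N and 4N cells and 40.3, 61.9 and 54.1 CPM with CYC065, differences of -0.77, -0.70 and -0.75. *Cstf2* differed by -1.60, -1.85 and -1.64. *Zfp473*, a protein of the processing complex, was called higher in 2N (1.09) and 4N cells (1.46) but lay at -0.74 in unsorted cells. Its levels were 0.51 to 1.76 CPM, from 30 to 101 counts per library.

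Of 9 histone chaperones and associated factors, 5, 5 and 3 were called lower with CYC065 in unsorted, 2N and 4N cells (all genes 13.9%, 13.3% and 11.4%) and none higher. *Asf1b* differed by -2.10, -1.96 and -1.496, *Chaf1b*, a subunit of the assembly factor CAF-1, by -1.63, -1.42 and -1.13, and *Nasp* by -1.67, -1.02 and -0.62. Of 5 measured factors of histone mRNA decay, *Eri1*, a nuclease acting on the stem-loop, was called lower in unsorted cells alone (-1.09). *Slbp*, *Asf1b* and *Chaf1b* did not show the large excess of the histone genes in vehicle unsorted cells, with differences of -0.55, 0.02 and -0.12 against 2N cells.

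Replication-independent histone genes differed less than the clustered ones. The 11 of the list summed to 1832, 1504 and 1791 CPM in vehicle unsorted, 2N and 4N cells and to 1302, 1336 and 1442 CPM with CYC065. Of 10 tested, 5 were called lower with CYC065 in unsorted cells, 1 in 2N and 2 in 4N cells, and 1 was called higher, in 4N cells. Apart from the count in unsorted cells, these were not far from the shares of all genes (13.3% lower in 2N, 11.4% lower and 14.1% higher in 4N cells). *H2afx*, whose product marks DNA breaks when phosphorylated, had 115, 104 and 92.0 CPM with vehicle and 27.2, 32.3 and 32.6 CPM with CYC065, and it was called lower in all 3 populations. *H1f0*, the replacement linker histone, had 332, 133 and 202 CPM with vehicle and 331, 228 and 253 CPM with CYC065. *H2afv*, an H2A.Z gene, was called higher in 4N cells with 33.1 and 66.3 CPM.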

How the data were processed

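According to the submitters' processing notes, reads were demultiplexed (bcl2fastq), adapters were removed (Cutadapt 1.18) and the alignment to mm10 used STAR 2.7.0f. RSEM then gave the expected counts per GENCODE M21 gene that the authors deposited, with no scaling or filter. The labels and the methods give different versions of bcl2fastq and RSEM. Where genes share sequence RSEM divides reads between them, and 62 of the 69 members had fractional counts.

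The 3 columns of a condition were summed, and TMM factors were computed over the 6 libraries with edgeR 4.0.16 (R 4.3.3). Log2 differences used a prior count of 0.5. A test on the columns would compare libraries, not conditions, so edgeR and DESeq2 1.42.0 on rounded counts served as alternatives, as did other scalings, filters, prior counts, leaving out each column and removing the trend over transcript length. Calculations used Python 3.11.15 with pandas 2.3.3 and NumPy 2.4.6, and the tests were tried on simulated data. Depth was 54750203 to 62795507 summed counts per library, and intervals cover counting error only.

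The members and gene lists were chosen with earlier results of these data known. Genes were named by level (the 3 highest per class), by the largest and smallest difference, by membership in H1, Hist2, Hist3 or Hist4, or by a direction against the members' median. Others named were chosen after their values were seen. Of 7 names for decay factors 5 were matched, since 2 are older symbols of *Tut4* and *Tut7*. Protein sequences were not used here.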

Additional observations from a re-analysis of the deposited data

Results flagged for a closer look

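For some members the difference had opposite signs under the same contrast in different populations or treatments, with all 3 columns of one library on one side of all 3 columns of the other. None passed 1 on the log2 scale in both directions. The columns were counted as parts of 1 library, so the differences between the groups were not tested. For CYC065 against vehicle, *Hist1h1c* had -1.30 in unsorted and 0.40 in 4N cells, and *Hist1h2ac* -1.90 and 0.42. For 4N against 2N cells, *Hist1h4d* had -0.51 with vehicle and 0.12 with CYC065, and *Hist2h2bb* -0.69 and 0.30. For unsorted against 2N cells, *Hist3h2a* had 1.36 with vehicle and -0.26 with CYC065. No group held enough independent samples to look for a single outlying one.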

How the results depend on the processing

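The counts of members called were recomputed under up to 15 other settings each. Restriction to the 12 tested members with under 20% shared 50-base stretches, which cuts the number tested, gave 11, 6 and 3 calls for CYC065 against vehicle in unsorted, 2N and 4N cells, 6 and 0 for 4N against 2N with vehicle and CYC065, 9 and 10 for vehicle unsorted against 2N and 4N, 4 and 7 for CYC065 unsorted against 2N and 4N, and 1 for the difference of ratios. With the length trend removed, 12 members were called for CYC065 against vehicle in 4N cells (main 21) and 40 for CYC065 unsorted against 2N (main 25). Scaling by library size gave 14 for the former (12 lower, from 19) and 13 for the latter, and shifted their differences by 0.14 and -0.18. A counting interval wholly beyond 1 left 11 of 29 for 4N against 2N with vehicle, 16 of 25 for CYC065 unsorted against 2N and 0 of 1 for 4N against 2N with CYC065. The last, a single gene, became 2 with no filter, 0 with at least 100 counts and 0 in edgeR. The cause was not tested where the setting does not itself give it. Leaving out a column gave 0 to 3 for that count, 7 to 12 for the difference of ratios (12 without the second columns, main 7), and 60 to 62, 48 to 51 and 18 to 20 for CYC065 against vehicle in unsorted, 2N and 4N cells. It also moved *Hist1h2ao* between -4.37 and 5.854 (4N against 2N, CYC065) and between -3.32 and 8.1 (difference of ratios), with the negative values without the third columns. *Hist2h3c1* lay between -0.71 and 2.65 (CYC065 unsorted against 2N, lowest without the second) and between -2.39 and 0.32 (difference of ratios, highest without the first). These were 4 reversals among 5024 recomputed values of single members. A replicate block in edgeR's quasi-likelihood test gave the same counts as no block, 62, 45 and 18 for CYC065 against vehicle. The columns were counted as parts of 1 library, so their numbers pair no samples. The summed levels kept their direction under each scaling and without each column.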
